A study of Mus musculus with 6 samples.

Results

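The genes described here encode the NF-kB transcription factors, the proteins that hold them back or release them, and a set of cytokines and adhesion molecules that the pathway induces or that feed into it. The list holds 36 genes, chosen by name but with earlier results of these data known, and chemokines were left out. Of these, 34 were measured among the 18417 genes that had 1 symbol on the array, each read from its brightest probe set. TRAF2 and BIRC3 were not analysed here. A gene was counted as expressed when its mean signal over the 6 arrays was at or above the median of all genes (log2 6.04) and as dim below it, which gave 19 expressed and 15 dim members. Nearest to this limit lay XIAP (6.08) on the upper side and TNFAIP2 (6.03) on the lower side, so these neighbours hardly differed in signal.

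RNA came from tumours that human SK-N-BE(2) neuroblastoma cells, an established MYCN-amplified line, had formed in the adrenal gland of immunodeficient NSG mice. From day 7 after the injection of cells, the treated mice received the CXCR4 antagonist BL-8040 under the skin at 400 µg for 14 days in a row, and tumours of 3 treated and 3 control mice were hybridized, 1 array per tumour. What the control mice received is not stated in the labels. The 6 tumours came from separate mice of this strain, whose age is not stated in the labels. NSG mice have no T, B or natural killer cells but keep myeloid cells, and the array carries human probes, so host transcripts were read only as far as they bound these probes.

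NF-kB is a family of dimeric transcription factors that wait in the cytoplasm, bound to inhibitors of the IkB family. Signals from receptors such as those for TNF reach a kinase complex through adaptor proteins and ubiquitin enzymes; the kinases mark IkB for destruction, and the freed dimers enter the nucleus. Several of the genes they then switch on, among them NFKBIA and TNFAIP3, code for proteins that end the signal. A slower branch of the pathway runs through the kinase MAP3K14 and the pair NFKB2 and RELB. The activity of the pathway is set by protein turnover and location, which transcript levels do not measure.

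Before the results, 1 array needs mention. BL-8040 replicate 3 lay at -22.7 on the first principal component of all genes, where the other 5 arrays lay between -0.743 and 10.1. It held the lowest of the 6 values in 9 of the 34 members and the highest in 1 member, SOD2, whereas over all genes it held the lowest in 30.5% and the highest in 16.3%. The main differences are given with and without it. The 10 neuroblastoma markers used lay at signal percentiles between 71.9 and 99.9 of all genes, MYCN highest. The markers of the tumour cells were thus present in the arrays. However, 9 of these 10 stood lower in treated tumours, where 54.2% of all expressed genes were below 0. The median difference of the 10 was -0.23 (-0.11 without BL-8040 replicate 3), beside -0.01 for all expressed genes. BL-8040 replicate 3 held the lowest value of each of the 10, and without it 8 stood lower.

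The single comparison of the design was between BL-8040 and control tumours, and asked what blocking CXCR4 does to the tumour transcriptome. No member passed the test. In limma with Benjamini-Hochberg adjustment over all 18417 genes, an adjusted p under 0.05 was reached by 0 of 34 members, against a background of 0% of all genes, and the smallest adjusted p of any member was 0.644. The inhibitor gene NFKBIA stood highest relative to control (1.16-fold), the induced gene TNFAIP2 lowest (0.822 times). At an unadjusted limma p under 0.05, 1 member was higher (NFKBIA; 2.64% of all genes) and 3 were lower (TNFAIP2, LIF and IL1A; 5.08% of all genes). The 3 treated values lay wholly above the 3 controls in 2 members (NFKBIA and CHUK; 4.93% of all genes) and wholly below them in 3 members (TNFAIP2, LIF and IKBKB; 9.05% of all genes). Counts this small are near what these backgrounds give for 34 genes.

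**Figure D1:**
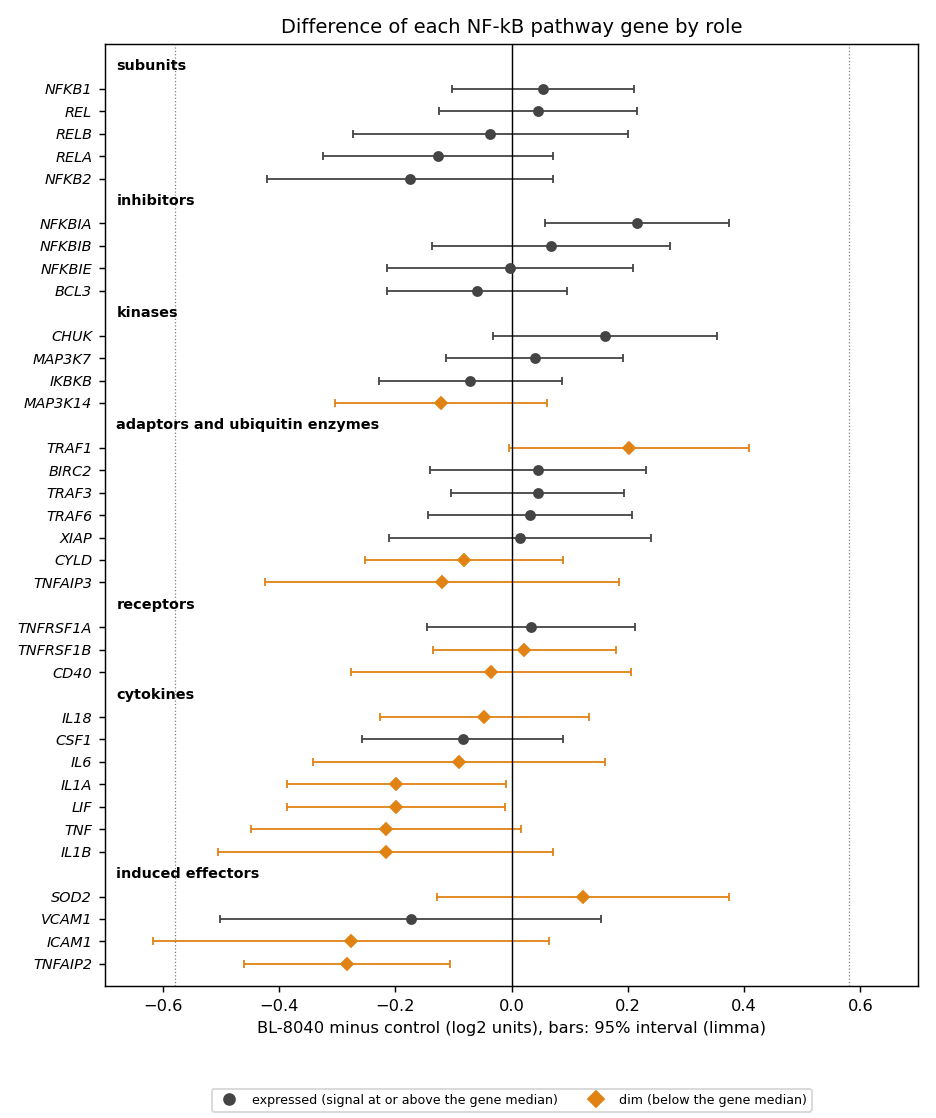
Difference between BL-8040 and control tumours (log2 units, x axis) for the 34 measured genes of the NF-kB pathway, grouped by role; points are the means of 3 against 3 arrays, bars the 95% interval from limma, dotted lines 0.58 log2 units (1.5-fold). NFKBIA and TRAF1 lie farthest to the right, TNFAIP2 and ICAM1 farthest to the left, and all 7 cytokine genes lie left of 0.

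The 95% intervals refer to the array signal of 1 gene at a time and were not adjusted for the number of genes. For dim genes, whose signal is not known to lie above background, a narrow interval does not bound the change in transcript. For 33 of the 34 members the 95% interval lay within 0.58 log2 units (1.5-fold) of 0 on both sides, as it did for 96.4% of all genes. The exception was ICAM1, whose interval reached down to -0.62. Half-widths had a median of 0.178 log2 units in expressed members and 0.207 in dim members. Expressed and dim members differed in how they were placed. Of the 19 expressed members, 11 were higher and 8 lower, with a median difference of 0.03, beside -0.01 for all expressed genes, of which 54.2% were below 0. Among the 15 dim members 12 were lower and 3 higher, with a median of -0.12, beside -0.04 for all dim genes, of which 62.9% were below 0. Without BL-8040 replicate 3 the medians were 0.04 for expressed and -0.08 for dim members. The dim cytokine genes, described below, were all among the 12 lower dim members, so the 2 patterns share genes. With all cytokine genes set aside, 14 of the other 27 members were higher and 13 lower, with a median difference of 0.01.

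**Figure D2:**
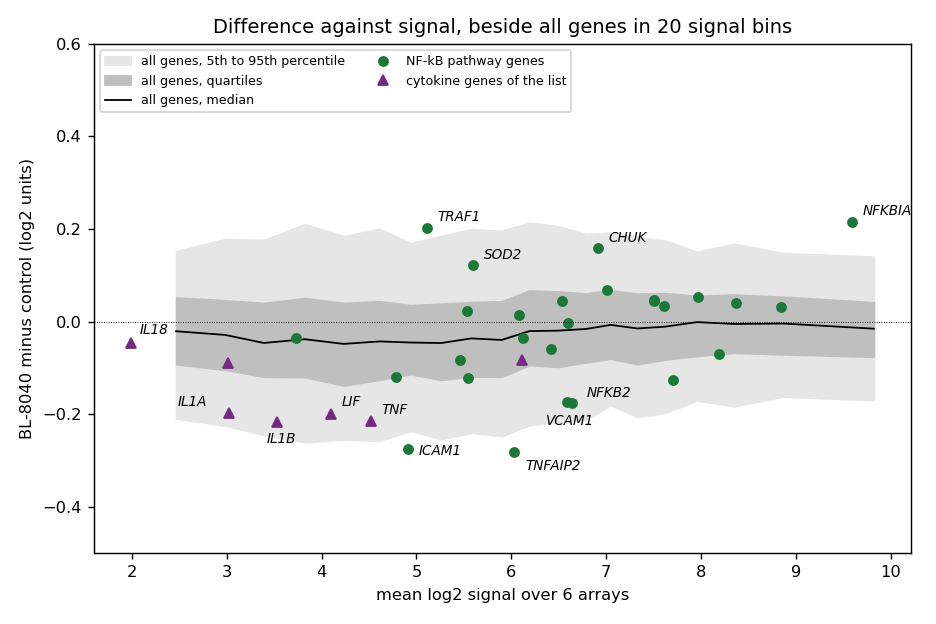
Difference between BL-8040 and control (log2 units, y axis) against the mean log2 signal over 6 arrays (x axis) for the 34 members, beside the median, quartiles and 5th to 95th percentile of all genes in 20 signal bins. The 7 cytokine genes lie below the all-gene median, 6 of them at the dim end and CSF1 in the middle of the signal range, and NFKBIA lies above the band of equally bright genes.

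The DNA-binding subunits were all expressed. NFKB1, which encodes a precursor of a DNA-binding subunit of the classical dimer and was the brightest of them (percentile 82.6), measured 7.97, 8.03 and 7.97 in the BL-8040 arrays and 7.92, 7.99 and 7.90 in the controls. The groups overlapped, and the difference was 0.05 ± 0.07 (log2, SE, n = 3 each), with a 95% interval from -0.10 to 0.21. RELA, the main activating partner of NFKB1, was at 7.64 ± 0.10 in treated and 7.77 ± 0.11 in control tumours (SD, n = 3 each), a difference of -0.13 with an interval from -0.32 to 0.07. REL, the subunit best known from lymphocytes, differed by 0.05 ± 0.08 (SE), and by 0.10 without BL-8040 replicate 3.

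NFKB2, the precursor subunit of the slower branch, had the largest difference of the 5 subunits. Its values were 6.64, 6.58 and 6.43 in treated tumours and 6.52, 6.91 and 6.75 in controls. Control replicate 1 lay below 2 of the treated arrays, so the groups overlapped. The NFKB2 difference of -0.18 ± 0.11 (SE) had a limma adjusted p of 0.686 and became -0.11 without BL-8040 replicate 3, -0.08 without control replicate 2 and -0.28 without control replicate 1. Its partner RELB was at 6.10 ± 0.08 and 6.14 ± 0.20 (SD, n = 3 each), and its lowest and highest values, 5.91 and 6.29, were both in control arrays. Control replicate 2 held the highest value of NFKB2, RELA and RELB, and of the 5 subunits 2 were higher and 3 lower after BL-8040.

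Among the inhibitors, NFKBIA encodes the IkB protein that is destroyed first when the pathway is switched on and is made anew by NF-kB itself. It was the brightest member (percentile 96.8 of all genes). Its values were 9.69, 9.70 and 9.69 in the BL-8040 arrays and 9.41, 9.54 and 9.47 in the controls. The treated tumours were nearly equal to each other and all lay above the controls, with a gap of 0.142 log2 units between the lowest treated and the highest control value. The difference of 0.22 ± 0.07 (SE) had a 95% interval from 0.06 to 0.37, an unadjusted limma p of 0.0133 and an adjusted p of 0.644. By p, NFKBIA was 325th of 18417 genes, and the exact permutation p of 0.1 was the smallest that 3 against 3 arrays allow.

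The NFKBIA difference did not rest on 1 array. With each array left out in turn it lay between 0.18 (without control replicate 1) and 0.25 (without control replicate 2), and was 0.22 without BL-8040 replicate 3. An unadjusted p under 0.05 with all arrays and with each left out was found for 2 members, NFKBIA (higher; 0.662% of all genes) and TNFAIP2 (lower; 1.18% of all genes). The range of the 3 treated NFKBIA values was narrower than that of all but 0.505% of genes (0.749% of expressed genes). This was not particular to NFKBIA among the members. The treated range of BIRC2, whose groups overlapped, was 0.0144 log2 units, against 0.0145 for NFKBIA.

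The other inhibitors did not show this separation. NFKBIB, a second IkB protein, was at 7.04 ± 0.13 in treated and 6.97 ± 0.10 in control tumours (SD, n = 3 each), and its difference of 0.07 had an interval from -0.14 to 0.27. It was 0.13 without BL-8040 replicate 3 and 0.0023 when BL-8040 replicate 2 was left out. NFKBIE, the third, was at 6.60 ± 0.10 and 6.60 ± 0.14, with an interval from -0.22 to 0.21. BCL3, an atypical member of the family that acts in the nucleus with NF-kB dimers, was at 6.39 ± 0.05 and 6.45 ± 0.03, a difference of -0.06 ± 0.07 (SE). Whether NFKBIA differed from the other inhibitor genes in its response was not tested.

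**Figure D3:**
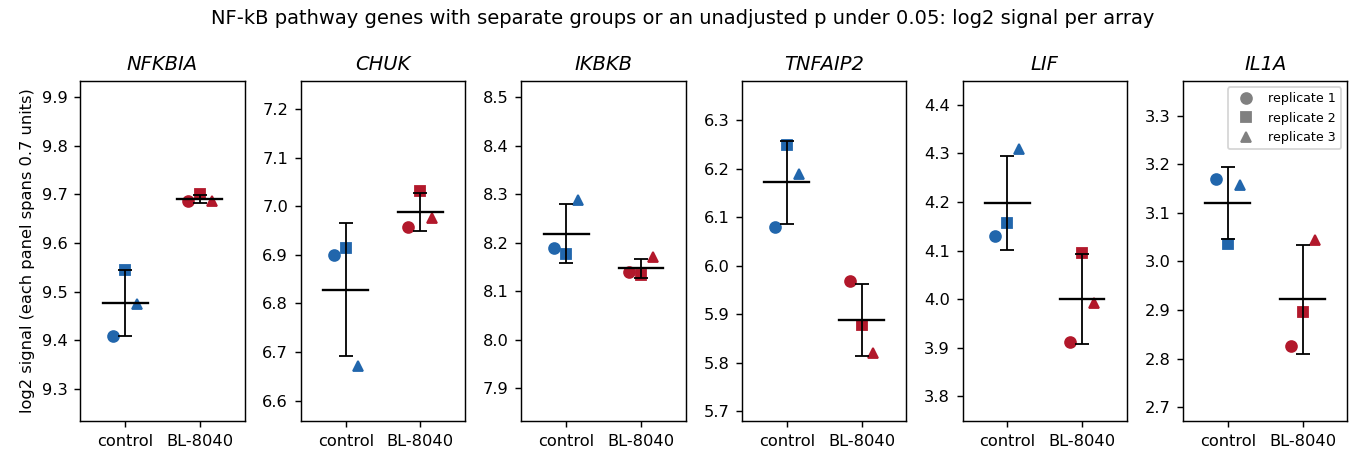
Log2 signal (y axis, each panel 0.7 units high) of 6 NF-kB pathway genes in the 3 control and 3 BL-8040 arrays; symbols mark the replicate number, horizontal lines the mean and bars the SD. NFKBIA and CHUK are higher and IKBKB, TNFAIP2 and LIF lower in every treated array, whereas BL-8040 replicate 3 meets the lowest control in IL1A.

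The kinases were split. CHUK, a catalytic subunit of the IkB kinase complex that also serves the slower branch, measured 6.96, 7.03 and 6.98 after BL-8040 and 6.90, 6.91 and 6.67 in controls. All treated values lay above the controls, but by a narrow margin except against control replicate 3. The CHUK difference was 0.16 ± 0.09 (SE, limma adjusted p = 0.660), and 0.08 without control replicate 3. IKBKB, the other catalytic subunit, went the opposite way, at 8.14, 8.13 and 8.17 after BL-8040 against 8.19, 8.18 and 8.29. Its groups did not overlap either, yet the difference of -0.07 ± 0.07 (SE) was about the size of its standard error, and it became -0.04 without control replicate 3. Control replicate 3 was the lowest array of CHUK and the highest of IKBKB.

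MAP3K7, the kinase that activates the IkB kinase complex, was the brightest gene of this group, with values of 8.41, 8.35 and 8.41 against 8.38, 8.35 and 8.32. It was also among the steadiest members, with a range of 0.09 log2 units over all 6 arrays and an interval of the difference from -0.11 to 0.19. MAP3K14, which drives the slower branch, was dim, at 5.48 ± 0.11 in treated and 5.60 ± 0.06 in control tumours (SD, n = 3 each). Its difference of -0.12 was -0.07 without BL-8040 replicate 3, which had its lowest value.

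Adaptor and ubiquitin genes pass the signal from receptors to the kinases. TRAF6, the ubiquitin ligase used by interleukin and Toll-like receptors, was the brightest, with 8.81, 8.94 and 8.81 after BL-8040 and 8.91, 8.80 and 8.75 in controls. The groups overlapped, and the interval of the difference ran from -0.14 to 0.21. TRAF3, which restrains MAP3K14, had the narrowest range of all 34 members, 0.07 log2 units over 6 arrays, at 6.55 ± 0.02 and 6.51 ± 0.02 (SD, n = 3 each).

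TRAF1, an adaptor that NF-kB induces, was dim and had the largest difference of this group. It measured 5.28, 5.25 and 5.10 in treated tumours and 5.16, 4.96 and 4.90 in controls. BL-8040 replicate 3 fell below control replicate 1, so the groups overlapped. Its difference of 0.20 ± 0.09 (SE) had a limma adjusted p of 0.646 and was 0.26 without BL-8040 replicate 3. TRAF1 was the dim member with the largest positive difference, beside 12 dim members that were lower.

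The inhibitor-of-apoptosis genes BIRC2 and XIAP, whose products are ubiquitin ligases, were at 7.53 ± 0.01 against 7.48 ± 0.13 and at 6.09 ± 0.15 against 6.07 ± 0.13 (SD, n = 3 each). The lowest value of BIRC2, 7.33, came from control replicate 3. The enzymes that strip ubiquitin and so end the signal were dim: CYLD differed by -0.08 ± 0.08 (SE) and TNFAIP3, itself an NF-kB target, by -0.12 ± 0.13. TNFAIP3 values were 4.79, 4.74 and 4.63 after BL-8040 and 5.04, 4.97 and 4.50 in controls, so that the controls spanned the treated arrays on both sides. Without control replicate 3 its difference was -0.29, without control replicate 1 it was -0.02 and without BL-8040 replicate 3 it was -0.07. The separation of groups seen in NFKBIA, another negative regulator that NF-kB induces, was not seen in TNFAIP3.

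The receptors hardly moved. TNFRSF1A, the broadly expressed receptor for TNF, measured 7.69, 7.57 and 7.61 after BL-8040 and 7.49, 7.68 and 7.60 in controls, with an interval of the difference from -0.14 to 0.21. TNFRSF1B, the receptor for TNF best known from blood cells, was dim and within a range of 0.12 log2 units over the 6 arrays. CD40, a receptor of antigen-presenting cells, was dimmer still (percentile 16.4), with 3.56, 3.78 and 3.81 in treated and 3.83, 3.56 and 3.86 in control arrays. Its groups overlapped across their whole range.

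All 7 cytokine genes were lower after BL-8040, where 58.5% of all genes and 62.9% of dim genes were below 0. Their median difference was -0.20. None passed the test over all genes, and 6 of the 7 were dim, at percentiles between 0.206 (IL18) and 26.2 (TNF) of all genes. No detection call was used here, so a dim value is not known to lie above background. The same 7 genes were lower without BL-8040 replicate 3, with a median of -0.16, but with some other arrays left out the sign of IL6 and of IL18 turned.

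LIF, a cytokine of the interleukin-6 family, was the cytokine gene whose groups did not overlap. It measured 3.91, 4.10 and 3.99 after BL-8040 and 4.13, 4.16 and 4.31 in controls, with BL-8040 replicate 2 only just below control replicate 1. The difference of -0.20 ± 0.08 (SE) had an unadjusted limma p of 0.0401 and an adjusted p of 0.644. It was -0.14 without control replicate 3.

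IL1A, a cytokine often held inside cells and released on damage, measured 2.83, 2.90 and 3.04 in treated and 3.17, 3.04 and 3.16 in control tumours, values near the dim end of the array (percentile 8.01). Its groups met at BL-8040 replicate 3 and control replicate 2. The difference was -0.20 ± 0.08 (SE, limma adjusted p = 0.644), and -0.26 without BL-8040 replicate 3. IL1B, which encodes interleukin-1 beta, had 3.27, 3.62 and 3.40 against 3.82, 3.71 and 3.40. The lowest control of IL1B thus lay below 2 treated arrays, and its difference of -0.22 had a wide interval from -0.50 to 0.07. The IL1B difference was -0.13 without control replicate 1 and -0.34 without control replicate 3.

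TNF, the name-giving cytokine of its family, measured 4.44, 4.48 and 4.30 after BL-8040 and 4.42, 4.73 and 4.73 in controls. Control replicate 1 lay among the treated values, and the difference of -0.22 ± 0.10 (SE) had an unadjusted limma p of 0.0642. It was -0.16 without BL-8040 replicate 3 and -0.32 without control replicate 1. TNF was the only member with several probe sets; its 3 probe sets held identical values and were counted once. IL6, an inflammatory cytokine that NF-kB induces, differed by -0.09 ± 0.11 (SE), or by -0.03 without BL-8040 replicate 3. The cytokine gene IL18 had a difference of -0.05 ± 0.08 (SE) at a mean signal of 1.99.

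CSF1, the growth factor of macrophages, was the brightest cytokine gene and lay just above the limit for expressed genes (percentile 51.0). It measured 6.05, 6.09 and 6.07 in treated tumours against 6.08, 6.27 and 6.11. The treated values lay close together at the lower edge of the controls, and only control replicate 2 stood clearly above them. The CSF1 difference was -0.08 ± 0.08 (SE), and -0.03 without control replicate 2.

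**Figure D4:**
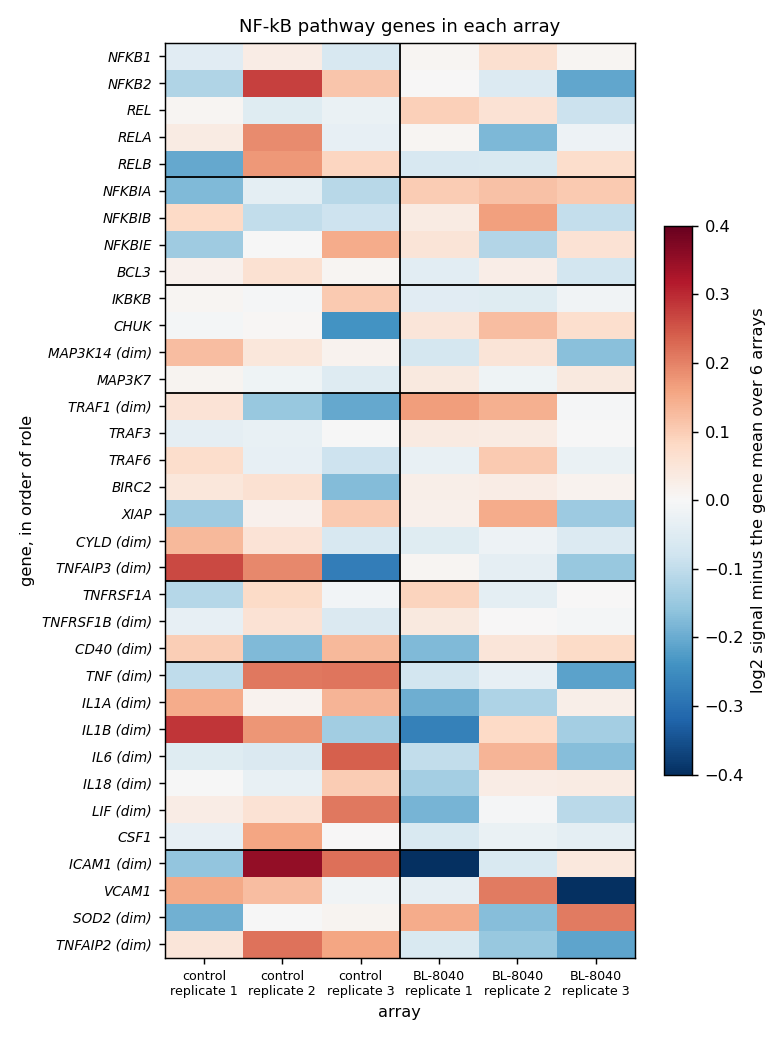
Log2 signal of the 34 genes (rows, in order of role) in each of the 6 arrays (columns), relative to the mean of each gene over the 6 arrays; red is above and blue below that mean. NFKBIA is red in all 3 treated arrays and TNFAIP2 blue in all 3, while VCAM1 is darkest blue in BL-8040 replicate 3 and ICAM1 in BL-8040 replicate 1.

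Of the induced effector genes, TNFAIP2, a protein first found as induced by TNF in endothelial cells, had the smallest p of all members. It measured 5.97, 5.88 and 5.82 after BL-8040 and 6.08, 6.25 and 6.19 in controls. All treated tumours lay below all controls, with a gap of 0.111 log2 units. The difference of -0.28 ± 0.08 (SE) had a 95% interval from -0.46 to -0.11, an unadjusted limma p of 0.00573 and an adjusted p of 0.644, and by p TNFAIP2 was 143rd of 18417 genes. With each array left out it lay between -0.33 (without control replicate 1) and -0.24 (without control replicate 2). It was -0.25 without BL-8040 replicate 3.

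The adhesion molecules ICAM1 and VCAM1, which bind leukocyte integrins, had the widest ranges of all members, 0.75 and 0.64 log2 units. ICAM1 values were 4.51, 4.85 and 4.96 in treated and 4.76, 5.27 and 5.13 in control tumours. The groups overlapped, as control replicate 1 fell among the treated arrays. Its difference of -0.28 ± 0.15 (SE) was -0.37 without BL-8040 replicate 3 but -0.15 without BL-8040 replicate 1, the lowest array.

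VCAM1 measured 6.55, 6.79 and 6.16 after BL-8040 and 6.74, 6.71 and 6.57 in controls. The lowest and the highest of the 6 values were both in treated tumours, and the difference of -0.17 changed with the treated array left out: it was -0.0018 without BL-8040 replicate 3 and -0.32 when BL-8040 replicate 2 was left out. SOD2, the mitochondrial superoxide dismutase, was the induced effector that stood higher, at 5.75, 5.43 and 5.80 against 5.41, 5.59 and 5.61. BL-8040 replicate 2 lay below 2 controls, and the SOD2 difference of 0.12 ± 0.11 (SE) was 0.05 without BL-8040 replicate 3 and 0.24 when BL-8040 replicate 2 was left out. In bulk tumour RNA, fewer cells of a type and less RNA per cell cannot be told apart.

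**Figure D5:**
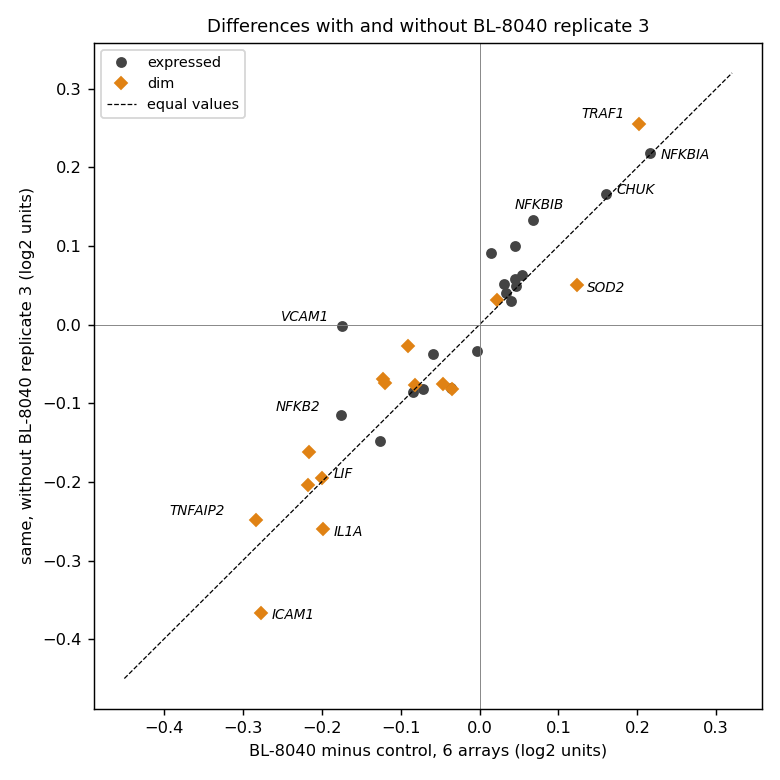
Difference between BL-8040 and control (log2 units) of each of the 34 genes with all 6 arrays (x axis) and without BL-8040 replicate 3 (y axis); the dashed line marks equal values. NFKBIA stays at 0.22, VCAM1 moves from -0.17 to -0.0018, and ICAM1 and TRAF1 lie farther from 0 without that array.

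Cytokines and adhesion molecules of this list are also made by myeloid, endothelial and fibroblast cells, so marker genes of these cells were set beside them. All 10 myeloid markers were measured, at percentiles from 7.79 to 83.3, and their summed log2 signal ran from 47.2 to 48.97 in treated and from 47.9 to 48.5 in control arrays. The treated range enclosed that of the controls, with 6 myeloid markers higher and 4 lower. The 7 endothelial markers were all dim (highest percentile 34.7) and summed to between 29.96 and 31.1 against 30.6 to 31.1, with 5 lower and 2 higher. The 7 fibroblast markers lay at percentiles from 28.4 to 98.8 and summed to between 58.4 and 60.97 against 58.8 to 59.5. Of these markers 5 were higher and 2 lower (2 higher and 5 lower without BL-8040 replicate 3). Whether their signal came from host or tumour cells was not tested. The summed signal of each list overlapped between the groups. Of the single endothelial markers, PECAM1 (-0.21), CDH5 (-0.11) and VWF (-0.08) were lower in every treated array than in any control. These were 3 of 7, where 9.05% of all genes were so placed. The 95% intervals of CDH5 (-0.27 to 0.04) and VWF (-0.24 to 0.07) included 0. The 2 higher endothelial markers, TEK (0.26) and KDR (0.02), had groups that overlapped. Such separation was not particular to this list. Of the myeloid markers, PTPRC (0.14) was wholly higher and TYROBP (-0.20) wholly lower. The neuroblastoma markers PHOX2A (-0.24) and HAND2 (-0.21) were wholly lower, and no fibroblast marker was separated. The part of myeloid, endothelial and fibroblast cells in the TNFAIP2, cytokine and adhesion values was not tested.

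Other genes of the pathway were read from lists of 45 signalling and 24 induced genes outside the 36, with 42 and 22 measured. Of the 64 genes, 28 were higher and 36 lower, with a median difference of -0.04, beside -0.02 for all genes. Their limma adjusted p reached 0.05 in 0 cases, against 0% of all genes. At an unadjusted p under 0.05 there were 2 higher and 4 lower genes, where 2.64% and 5.08% of all genes were so placed. The treated values lay wholly above the controls in 5 of the 64 genes and wholly below them in 6, where 4.93% and 9.05% of all genes were so placed.

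Of the signalling genes, NFKBIZ, an atypical IkB protein that is induced by and works with NF-kB in the nucleus, had the smallest p. Unlike NFKBIA it was dim (percentile 31.7), so its signal is not known to lie above background. It measured 5.03, 4.87 and 5.19 after BL-8040 and 4.76, 4.69 and 4.78 in controls. All treated arrays lay above all controls, and the difference of 0.29 ± 0.09 (SE, limma adjusted p = 0.644) was 0.21 without BL-8040 replicate 3. TBK1, a kinase related to the IkB kinases, differed by 0.20 and IRAK1, a kinase of interleukin and Toll-like receptor signalling, by 0.15; neither group pair overlapped. On the other side, TRADD, the adaptor of the TNF receptor, differed by -0.21, TNIP1, which works with TNFAIP3 to limit the signal, by -0.30, and TNFRSF11A, the receptor RANK, by -0.15. The groups of TRADD and TNIP1 did not overlap either, whereas those of TNFRSF11A did. BL-8040 replicate 3 held the lowest TNIP1 value, 6.42, and without it the TNIP1 difference was -0.15.

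Of the other induced genes, 14 of 22 were below 0, a share close to that of all genes (58.5%) and of dim genes (62.9%). EFNA1, an ephrin ligand, measured 5.36, 5.44 and 5.27 against 5.64, 5.66 and 5.52, with no overlap and a difference of -0.25 ± 0.08 (SE, limma adjusted p = 0.644). TNFSF10, the death ligand TRAIL, was among the dimmest genes (percentile 4.73) and differed by -0.21, also with no overlap. PTGS2, the inducible cyclooxygenase, differed most within the list, by -0.43 ± 0.19 (SE), but its treated values of 4.30, 4.92 and 4.18 overlapped controls at 5.02, 5.03 and 4.63. With that treated array, replicate 3, left out, EFNA1 stood at -0.21, TNFSF10 at -0.13 and PTGS2 at -0.29. The higher genes with the smallest p were INHBA (0.19), IRF1 (0.12) and IL15 (0.06), with a smallest unadjusted limma p of 0.199.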

How the data were processed

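Tumour RNA of 3 BL-8040 and 3 control mice (200 ng each, per the labels' protocols) was read on Affymetrix Human Gene 1.0 ST arrays. The authors deposited 1 table of log2 values; the scale was read from the values. The submitters' processing notes name Partek 6.6; background correction, normalization and summarization are not stated in them or in the labels. Array medians lay between 5.35 and 5.42. The labels name the host, mouse, as organism. Per the platform annotation 19460 of 33297 probe sets had 1 symbol; of several probe sets of a gene the brightest was kept (18417 genes). Groups were compared in R 4.3.3 with limma 3.58.1 (lmFit, then eBayes), two-sided and unblocked, with Benjamini-Hochberg adjustment over all genes; the fit was checked on simulated data. Replicate numbers did not pair the arrays. Differences are BL-8040 minus control. Precision is limited by the number of arrays.

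The members and lists were chosen with earlier results of these data known. Values of each array are given by rule for NFKBIA, for members at an unadjusted p under 0.05 or with groups that did not overlap, and for the brightest member and that with the largest difference in each role; TNF, ICAM1, TNFAIP3, SOD2 and the arrays of other pathway genes were added after their values were seen. Of each other list up to 3 genes per direction with the smallest p are named. Alternatives were filters on dim genes, the mean of probe sets, quantile normalization, median centring, array weights, robust moderation with a variance trend, the replicate block, an adjusted p under 0.1, log2 6 as the limit for expressed genes and each array left out. No human sequence was used here.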

Additional observations from a re-analysis of the deposited data

How the results depend on the processing

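Calls over all genes stayed at 0 of the genes tested in limma under each alternative run, where 487 genes were higher and 935 lower at an unadjusted p under 0.05. When genes under the median signal were removed, 352 were higher (3.82% of those tested, against 2.64%) and 362 lower (3.93%, against 5.08%), and 356 and 371 without those under log2 6; the excess of lower genes was thus nearly gone among brighter genes. Of 243 member differences under the alternatives that keep all arrays, 242 kept their sign. This count says little, because most of these alternatives cannot change a member difference. The filters on dim genes, the mean of probe sets, the robust moderation and the replicate block left each difference as it was. Median centring hardly changed it. Only quantile normalization and array weights could move a sign in practice, and XIAP was -0.00075 under quantile normalization. No member difference reached an adjusted p under 0.05 under any alternative, or with an array left out (smallest 0.461). The median of the other pathway genes moved from -0.04 to 0.0046 without genes under the median signal, and that of dim members to -0.28 under the log2 6 filter, which left TNFAIP2 alone. With 1 array left out, lower genes at an unadjusted limma p under 0.05 numbered 578 (without control replicate 2) to 1135 (without control replicate 1) and higher genes 327 to 703. The median ran from -0.016 (without control replicate 1) to 0.041 (without BL-8040 replicate 3) for expressed members, from -0.18 (without BL-8040 replicate 2) to -0.076 (without BL-8040 replicate 3) for dim members, and from -0.043 to 0.0049 (without control replicate 2) for other pathway genes. With an array left out 24 members kept their sign, and 10 with differences near 0 did not: RELB ran from -0.15 to 0.042, NFKBIE from -0.074 to 0.070, TRAF6 from -0.013 to 0.074, BIRC2 from -0.029 to 0.087, XIAP from -0.056 to 0.091, TNFRSF1A from -0.016 to 0.080, TNFRSF1B from -0.0017 to 0.057, CD40 from -0.13 to 0.045, IL6 from -0.18 to 0.0070 and IL18 from -0.075 to 0.0089. The causes were not tested. With the replicate number as a block, 486 genes were higher and 1002 lower at an unadjusted p under 0.05; same-numbered arrays correlated at -0.04, 0.02 and 0.08 in their deviations from the group means, and not every array correlated best with its own number.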

Other observations

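Several fast-responding genes of the induced list had their highest value in BL-8040 replicate 2, and their groups overlapped. The choice of these genes followed from their values. JUNB, a subunit of the AP-1 transcription factor, measured 8.94 in that array and between 7.90 and 8.24 in the other 5. IER3, an early stress gene, measured 8.995 there and at most 8.51 elsewhere. KLF10, a zinc finger repressor, and ZFP36, which promotes decay of cytokine transcripts, were also highest there, at 8.45 and 5.78. The next values were closer, at 8.21 (control replicate 2) for KLF10 and 5.59 (control replicate 3) for ZFP36. BL-8040 replicate 3 held the lowest value of KLF10, 7.57. NFKBIA was also highest in BL-8040 replicate 2, but its value there, 9.70, lay beside 9.69 in both other treated arrays. The differences between groups were 0.10 ± 0.23 for JUNB, 0.14 ± 0.23 for IER3, -0.05 ± 0.19 for KLF10 and -0.16 ± 0.19 for ZFP36 (log2, SE, n = 3 each). Without BL-8040 replicate 3 they were 0.29, 0.30, 0.16 and -0.03, in that order.

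LIFR, a subunit of the LIF receptor, measured 6.80, 6.69 and 6.10 after BL-8040 and 6.61, 6.64 and 6.85 in controls, so that only BL-8040 replicate 3 lay below the controls. IL6ST, the signalling subunit that the receptors for LIF and IL6 share, was at 7.66, 7.65 and 7.64 against 7.61, 7.62 and 7.41, with all treated arrays above all controls and a difference of 0.10 ± 0.08 (SE), which was 0.03 without control replicate 3. Both were also chosen after their values were seen.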
